A study of Mus musculus with 3 samples.

Results

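The prostaglandin genes of mouse back skin were followed across 3 Affymetrix mouse arrays, from the release of the prostaglandin precursor to the receptors. The set was chosen by gene symbol and lists 10 genes. Of these, 8 have at least 1 probe set of their own in the platform annotation, 15 probe sets in all, out of 18193 genes and 45037 probe sets. Ptges3, a cochaperone also described as a cytosolic prostaglandin E synthase, is read by 2 probe sets that the annotation shares with the pseudogene Ptges3-ps. Ptgs1, the constitutive cyclooxygenase, has no probe set named in the annotation used here and is not analysed.

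Each array carried 250 ng of pooled RNA from the back skin of male mice, from which the dermal white adipose tissue had been removed. The groups were WT (C57BL/6J, 5 mice) and interleukin-10 knockout (KO, 7 mice), both on an AIN-93-based diet, and KO mice on a diet with 8% powdered eggshell membrane (pESM; the KOE group, 6 mice). Feeding began at 4 weeks of age and lasted 28 weeks. The KO males were an F2 generation. Male IL-10 KO mice of the strain B6.129P2-IL-10<tm1Cgn>/J were crossed with C57BL/6J females, and the heterozygous daughters were mated with homozygous KO males. The loss of IL-10 is not limited to the skin. The WT mice are not stated to be littermates of the KO mice, and the sources used here do not say which mice were pooled. Values are signals on a linear scale, and their ratios between pools have no replicate check, so no p-value is given and directions describe the pools rather than the mice.

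Prostaglandins are short-lived lipids made on demand near the cells that respond to them. Phospholipase A2 frees arachidonic acid from membranes, a cyclooxygenase (Ptgs1 or Ptgs2) turns it into prostaglandin H2, and a terminal synthase then sets the product, prostaglandin E2 (PGE2) for Ptges and prostaglandin D2 (PGD2) for Ptgds. PGE2 acts through the receptors EP1 to EP4, and Hpgd starts its inactivation. In skin, PGE2 takes part in inflammation, the response to ultraviolet light and wound repair, and PGD2 has been linked to the hair follicle.

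In these pools the cyclooxygenase gene Ptgs2 and the PGE2 synthase gene Ptges were higher in KO than in WT, and the PGD2 synthase gene Ptgds was lower. In KOE, Ptgs2 and Ptgds lay between the KO and WT values, whereas Ptges stayed near its KO value at 2 of its 3 probe sets. The receptor genes Ptger2, Ptger3 and Ptger4 differed little at their strongest probe sets.

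The study called a difference when signals were 1.5-fold apart and not below 40, read here as reaching 40 on either array of a pair. For every list of genes, counts given as higher, lower, above or below are those past this cut-off. By that cut-off and the strongest probe set of each gene, Ptgs2 and Ptges were the 2 of 8 measured genes higher in KO than in WT, and Ptgds was the 1 that was lower. Of 14495 genes in all, 10.9% were higher and 14.5% lower. Against KO, 1 gene (Ptgds) was higher in KOE and 1 (Ptgs2) lower, where 10.9% and 5.33% of 14594 genes were. Against WT, 2 (Ptgs2 and Ptges) were higher in KOE and 1 (Ptgds) lower, where 12.4% and 10.4% of 14784 genes were. The median log2 ratio of the 8 genes was -0.05 between KO and WT and 0.09 between KOE and KO, beside 0.01 and 0.02 over all genes. The other 5 of the 8 were within the limits between KO and WT, and 6 were between KOE and KO.

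The promoters of Ptgs2, Ptges and Ptgds are shown because these 3 genes were past the cut-off. They are RefSeq sequences of build GRCm38.p6, from 250 bases before to 50 bases after the annotated start, and all 10 listed genes had one in the table. Capitals mark matches to the motifs named after the sequences.
Ptgs2 (chr1:150099781-150100080, plus strand): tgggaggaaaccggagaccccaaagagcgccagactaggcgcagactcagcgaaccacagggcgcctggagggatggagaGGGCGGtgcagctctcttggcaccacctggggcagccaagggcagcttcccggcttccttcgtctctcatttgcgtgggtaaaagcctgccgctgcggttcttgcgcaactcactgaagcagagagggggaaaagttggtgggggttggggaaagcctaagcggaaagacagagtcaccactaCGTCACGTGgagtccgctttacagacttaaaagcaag
Ptges (chr2:30903248-30903547, minus strand): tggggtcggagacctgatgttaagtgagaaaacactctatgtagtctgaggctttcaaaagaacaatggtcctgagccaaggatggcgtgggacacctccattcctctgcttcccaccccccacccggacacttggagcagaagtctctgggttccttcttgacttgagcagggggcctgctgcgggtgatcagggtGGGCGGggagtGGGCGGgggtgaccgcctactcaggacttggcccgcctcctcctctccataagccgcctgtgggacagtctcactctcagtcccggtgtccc
Ptgds (chr2:25469700-25469999, minus strand): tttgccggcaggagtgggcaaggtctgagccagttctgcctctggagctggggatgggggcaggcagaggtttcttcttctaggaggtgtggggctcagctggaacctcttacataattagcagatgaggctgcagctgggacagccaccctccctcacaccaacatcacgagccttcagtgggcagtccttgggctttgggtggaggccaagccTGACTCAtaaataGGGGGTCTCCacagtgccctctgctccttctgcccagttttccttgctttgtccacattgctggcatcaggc
Both strands were searched for 9 motifs. The TATA box was TATAAA. The cyclic AMP response element core was TGACG. The E-box was CACGTG, and the CCAAT box the letters of its name. The GC box was GGGCGG, the AP-1 element TGANTCA and the EGR element GCGNGGGCG. The NF-kB element and the serum response CArG box were searched by their usual degenerate forms. The Ptgs2 window held a cyclic AMP response element core on the minus strand at positions 14 to 18 after the start, overlapping an E-box at 17 to 22, and a GC box 164 bases before the start. Of 27025 promoters of this length, 21.0% held that core, 7.24% that E-box and 35.9% a GC box. The TATA box was found in 14.2%, the CCAAT box in 37.9%, the EGR element in 5.55% and the CArG box in 1.57% of all promoters, and in none of these 3. The Ptges window held 2 GC boxes, 47 and 36 bases before the start, and the Ptgds window an AP-1 element 28 bases before the start, found in 7.93% of promoters, and an NF-kB element 12 bases before it, found in 8.18%. A match describes the sequence and does not show a bound site.

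The trimmed mean signal was 500 on each array after the authors' normalization, so it cannot show that the arrays are alike in scale. The median signal was 116 in WT, 96.3 in KO and 108 in KOE. Keratinocyte markers were strong in all pools, and none of 8 differed past the cut-off between KO and WT or between KOE and KO, although after scaling to a common median 1 did in each. Krt10, a keratin of the suprabasal epidermis, read 29571 (WT), 33694 (KO) and 36463 (KOE), and Lor, the cornified envelope protein loricrin, had 21527, 27455 and 28758. The KO and KOE arrays stood apart from WT in the hair follicle markers, all 9 of which were lower in both. The probe set of Il10 itself read 17.0 in WT against 679.9 in KO and 401 in KOE. Whether it lies in the altered stretch of the allele was not tested, so it does not check the knockout. In bulk skin, fewer cells of a type and less RNA per cell cannot be told apart. As a technical measure, probe sets of the same gene had log2 ratios that differed by an SD of 0.35 between KO and WT and 0.28 between KOE and KO, over 6055 genes with several probe sets at 40 or more on every array.

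**Figure D1:**
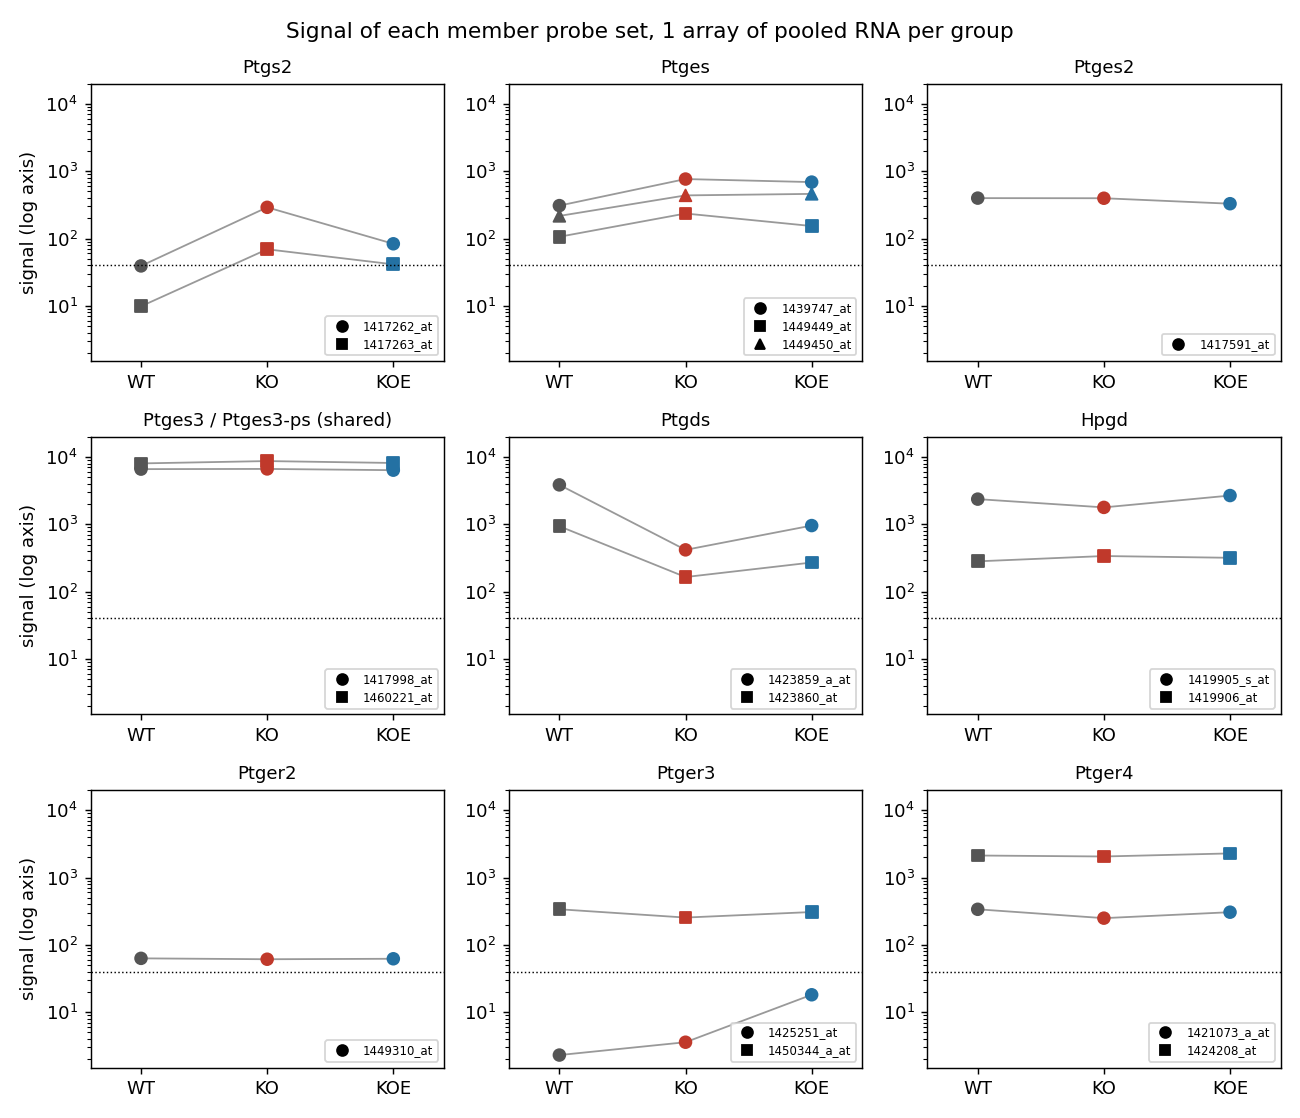
Signal of each probe set of 9 genes on a log axis, in the WT, KO and KOE arrays; each marker shape is a probe set, the dotted line is a signal of 40, and each point is 1 array of pooled RNA. Both Ptgs2 probe sets were highest in KO, the 3 Ptges probe sets were lowest in WT, and both Ptgds probe sets were highest in WT and lowest in KO.

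Ptgs2 encodes the inducible cyclooxygenase, an immediate early gene that many cells switch on within minutes to hours of a stimulus. Its strongest probe set, 1417262_at, gave 39.2 in WT, 291 in KO and 83.6 in KOE. The second, 1417263_at, gave 9.85, 69.3 and 41.4. KO was the highest and WT the lowest array at both, and the WT signal was under 40 at both. The KO to WT ratio was 7.42 at the first and 7.03 at the second. With signals under 40 raised to 40 it was 7.27 and 1.73, so the size at the second probe set rests on a WT signal far below that limit. With 40 added to every signal, the ratio at the first was 4.18. Only 70 of 14495 genes had a higher ratio of KO to WT.

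Compared with KO, Ptgs2 was 3.48-fold lower in KOE at the first probe set and 1.67-fold lower at the second. Relative to WT it was 2.13-fold higher in KOE at the first, with the WT signal just under 40. At the second the ratio was 4.20, or 1.03 with the WT signal raised to 40. The log2 ratio of KOE to KO was -1.80, and 108 of 14594 genes had a lower one. The KO array enters both comparisons, so any error of that array acts on both ratios in opposite directions.

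Other lists differed in the same direction as Ptgs2. Of 10 immediate early genes, Ptgs2 not among them, 7 were higher in KO than in WT and none was lower. Past the cut-off, the KOE array had 4 of them below KO and none above. Their summed signal was 26544 (WT), 46315 (KO) and 34554 (KOE), and the strongest were Egr1 with 8252, 12591 and 11744 and Fos with 4756, 8737 and 4876. Among 8 mast cell markers, 4 were higher and 1 lower in KO than in WT, and KOE had 5 below KO with none above. The summed mast cell signal was 2050.3, 3166 and 1721, led by the proteases Cpa3 (744, 1404 and 729) and Mcpt4 (534, 835 and 418), and Fcer1a was under 40 on each array. Some calls rest on weak signals, as for Hdc (6.85, 123 and 34.4) and Tpsb2 (50.1, 43.3 and 3.79). The median log2 ratio over the 8 was 0.78 for KO to WT and -1.38 for KOE to KO. With signals under 40 set to 40 these medians were 0.52 and -0.69.

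Myeloid markers gave a similar picture only in part. None of 8 macrophage markers was past the cut-off in KO against WT, although 5 were higher past it after scaling to a common median. KOE had 5 of them below KO past the cut-off. Their sum was 13775, 16247 and 10428, and the strongest were Csf1r with 4856, 4582 and 3999 and C1qa with 1863, 2658 and 1486. Of 5 measured neutrophil markers, 3 were higher in KO than in WT and 3 lower in KOE than in KO, with sums of 1240.1, 1505 and 689. Among those higher in KO, Csf3r (35.1, 76.5 and 21.8) and Mpo (29.1, 47.7 and 59.8) were under 40 in WT. The median log2 ratio of KO to WT over the 5 was 1.12, or 0.25 with signals under 40 set to 40. S100a8 had 982, 815 and 293 and S100a9 had 187, 550.2 and 282, and Cxcr2 was under 40 on each array. The part of these cells in the Ptgs2 values was not tested.

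Ptges encodes the microsomal PGE2 synthase, which is functionally coupled to Ptgs2 and is often induced together with it. Probe set 1439747_at gave 308 in WT, 765 in KO and 689 in KOE. The others gave 217, 437 and 461 (1449450_at) and 106, 235 and 153 (1449449_at). WT was the lowest array at all 3 probe sets, and KO exceeded it by 2.48-, 2.02- and 2.22-fold in that order. Of 14495 genes, 362 had a higher ratio than Ptges at its strongest probe set.

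The KOE pool kept the higher Ptges signal at 2 of the 3 probe sets. The ratio of KOE to KO was 0.90 at 1439747_at and 1.05 at 1449450_at, but 0.65 at 1449449_at, which is past the cut-off. Relative to WT, the KOE signal was 2.24-, 2.13- and 1.44-fold in the same order. Both genes were higher in KO than in WT. At the strongest probe sets, the log2 ratio of KOE to KO was -1.80 for Ptgs2 and -0.15 for Ptges. At the others it was -0.74 for Ptgs2 (1417263_at), and -0.62 (1449449_at) and 0.07 (1449450_at) for Ptges. The contrast between the genes thus depends on the probe set.

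The other PGE2 synthase genes were nearly equal on the arrays. Ptges2 encodes a membrane-associated enzyme that is expressed constitutively. Its probe set 1417591_at gave 399 in WT, 397 in KO and 329 in KOE. The probe sets shared by Ptges3 and Ptges3-ps gave 6620.1, 6666 and 6385 (1417998_at) and 8047, 8722 and 8169 (1460221_at). All ratios at these 3 probe sets were under the cut-off, with log2 ratios from -0.28 to 0.12. No value can be given to Ptges3 alone.

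Ptgds encodes lipocalin-type PGD2 synthase, a secreted protein that also binds lipophilic molecules. Its strongest probe set, 1423859_a_at, gave 3863 in WT, 418 in KO and 960.4 in KOE. The other, 1423860_at, gave 939, 165 and 271. WT was the highest and KO the lowest array at both. Ptgds was 9.23-fold lower in KO than in WT at the first and 5.69-fold lower at the second, and 194 of 14495 genes had a lower ratio.

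In KOE, Ptgds was 2.30-fold that in KO at the strongest probe set and 1.64-fold at the other, the latter under the cut-off after scaling to a common median. It was 4.02- and 3.46-fold lower than in WT. The KOE value therefore lay between the others but nearer to KO on the log2 scale, with log2 ratios of 1.20 to KO and -2.01 to WT. The log2 ratio of KOE to KO was exceeded by 593 of 14594 genes.

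Marker lists of several skin components were lower in KO along with Ptgds. All 9 hair follicle markers were lower in KO than in WT, with summed signals of 124234 (WT), 1019.9 (KO) and 939 (KOE). Krt25, an inner root sheath keratin, read 31928 in WT, 51.5 in KO and 21.4 in KOE. Tchh, trichohyalin, had 24309, 279 and 278. Past the cut-off, none of the 9 was higher in KOE than in KO and 4 were lower. Those 4 (Krt25, Krt27, Krt71 and Krt73) were all under 40 in KOE. The median log2 ratio of KOE to KO over the 9 was -1.07, or -0.002 with signals under 40 set to 40. All 6 melanocyte markers were lower in KO and 4 of them (2 after scaling to a common median) were higher in KOE than in KO, with sums of 14100.0, 979 and 1849.6, led by Dct (4761, 285 and 718) and Pmel (3117, 129 and 370.1).

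All 5 measured adipocyte markers had their lowest signal in KO, past the cut-off against both WT and KOE, with sums of 18833, 5323 and 11534. Fabp4, a fatty acid binding protein, had 15268, 4731 and 9406, and Adipoq, adiponectin, had 2194, 296 and 1289, although the dermal white adipose tissue had been removed. Of 8 skeletal muscle markers, 7 were lower and 1 was higher in KO, and 7 were higher in KOE, with sums of 21759.6, 5904 and 30166. Acta1 had 5093, 2497 and 9799, and Myl1 had 4753, 411 and 5735. Past the cut-off, 1 of 7 fibroblast markers was lower in KO than in WT and the same number higher in KOE than in KO. Their sums were 144772, 113912 and 137896, and the strongest were Dcn (32743, 32111 and 30539) and Col3a1 (33961, 23146 and 33915). The part of each component in the Ptgds values was not tested.

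Hpgd encodes 15-hydroxyprostaglandin dehydrogenase, which oxidizes PGE2 to an inactive product. Probe set 1419905_s_at gave 2372 in WT, 1788 in KO and 2681 in KOE, with KO the lowest. Probe set 1419906_at gave 283, 339 and 319, with WT the lowest. The probe sets thus differed in direction for KO vs. WT, with log2 ratios of -0.41 and 0.26, and for KOE vs. KO, with 0.58 and -0.09. The first lay just under the fold limit in KOE vs. KO and passed it after quantile and cyclic loess normalization.

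The EP receptors are G protein-coupled receptors, of which EP2 and EP4 raise cyclic AMP and EP3 mostly lowers it. Ptger4 gave 2125 in WT, 2056 in KO and 2283 in KOE at 1424208_at, and 338, 249 and 306 at 1421073_a_at. Ptger3 gave 338, 254 and 308 at 1450344_a_at, while its other probe set was under 40 on every array. Ptger2 gave 63.1, 61.2 and 62.2, close to the limit of 40. KO was the lowest array at the 4 probe sets above 40, but at Ptger2 and at 1424208_at of Ptger4 the direction between KO and WT turned after scaling to a common median. All ratios of the 4 between arrays were under the cut-off, the largest distance being a log2 ratio of -0.44 for Ptger4 at 1421073_a_at in KO vs. WT.

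**Figure D2:**
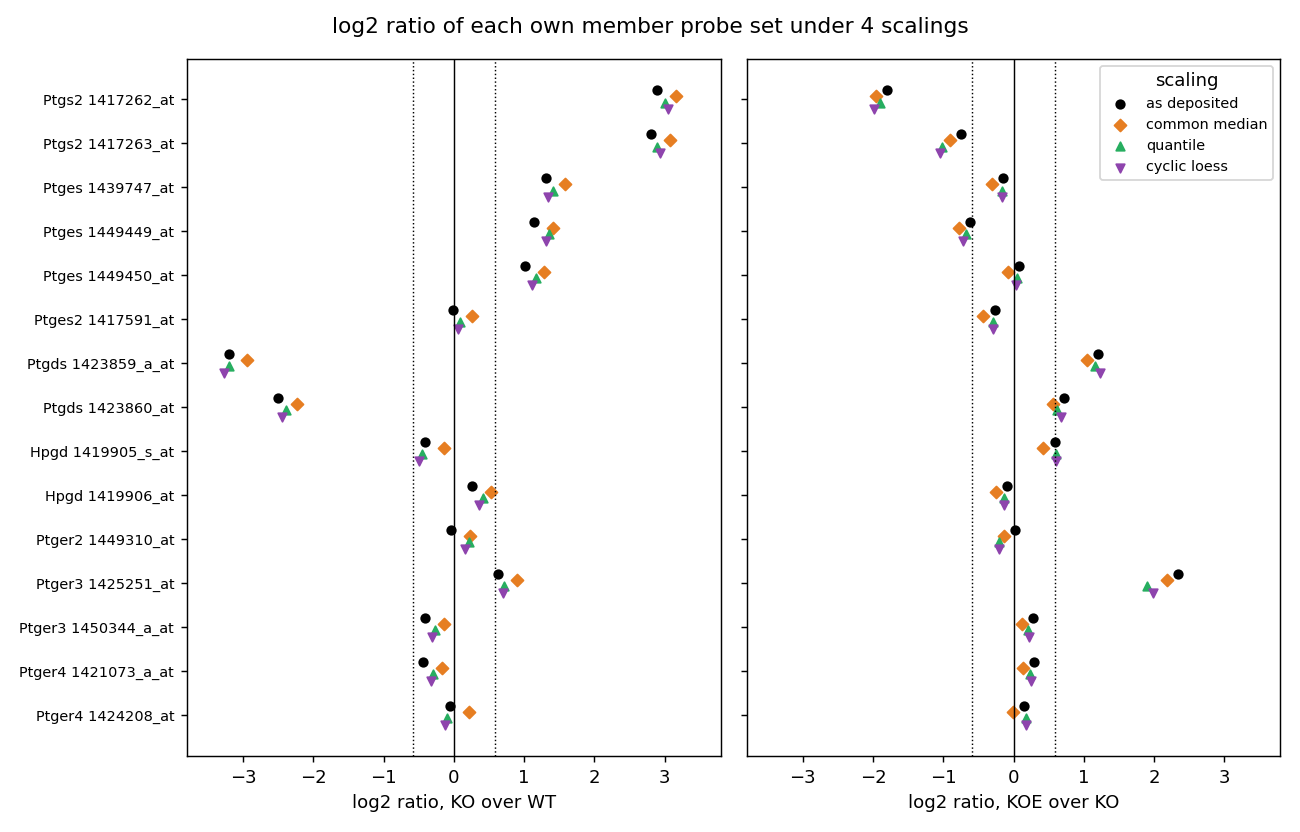
Log2 ratio of KO to WT (left) and of KOE to KO (right) for each of the 15 own probe sets, as deposited and after 3 further scalings; the dotted lines mark a ratio of 1.5. The Ptgs2, Ptges and Ptgds probe sets keep their side of 0 in KO vs. WT under each scaling, the 2 Ptgs2 probe sets lie to the left in KOE vs. KO, and Ptger3 1425251_at, far to the right there, has signals under 40 on every array.

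The steps before and beside these enzymes were read from 5 lists of other pathway genes, with 38 of 42 measured. Pla2g4b, Akr1b3, Ptgr3 and Ltb4r2 have no probe set of their own name. Only genes at 40 or more on either array of a pair can be called, and the percentages over all genes use only these. As deposited, they were 34 of the 38 between KO and WT and 33 between KOE and KO. Between KO and WT, 7 were higher in KO and 5 lower, where 10.9% and 14.5% of all genes were. Between KOE and KO, 1 was higher in KOE and 4 lower, where 10.9% and 5.33% were. Their median log2 ratio was 0.28 between KO and WT, or 0.12 with signals under 40 set to 40, and -0.06 between KOE and KO. Setting all arrays to a common median shifts every log2 ratio by 0.27 between KO and WT and by -0.16 between KOE and KO, and the counts then became 14 and 2, where 23.2% and 8.88% of all genes were called, and 0 and 7, where 8.03% and 9.01% were.

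Phospholipases A2, the enzymes that release fatty acids from phospholipids, were mixed. Of 15 measured, KO had 2 higher and 3 lower than WT. Pla2g4a, the cytosolic enzyme that prefers arachidonic acid, gave 1559.8 in WT, 1985 in KO and 1858 in KOE, which is under the cut-off. After scaling to a common median it was past the cut-off, higher in KO than in WT. Plaat3, a phospholipase abundant in adipocytes, gave 1822, 2737 and 2713. Its KO signal only just passed the fold limit against WT, and did not after quantile or cyclic loess normalization. The secreted enzymes Pla2g2e (700.3, 298 and 383) and Pla2g2d (213, 125 and 142) were lower in KO, as was the cytosolic Pla2g4f (257, 129.9 and 194), and Pla2g2d was under the cut-off after scaling to a common median and after quantile normalization.

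In KOE vs. KO, 2 phospholipases were lower and none was higher. Pla2g7, a secreted enzyme that inactivates platelet-activating factor, gave 560.3 in WT, 585 in KO and 299 in KOE, 1.95-fold lower in KOE than in KO. Pla2g4c gave 43.0, 78.1 and 41.0 at its strongest probe set, so that it was higher in KO than in WT and lower in KOE than in KO, but its other probe set gave 74.3, 23.4 and 47.2, past the cut-off in the opposite direction in both comparisons.

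Among the other prostanoid synthases, KO had 1 of 6 higher than WT and 1 lower. Prxl2b, a prostamide and prostaglandin F synthase, gave 1648 in WT, 2603 in KO and 2244 in KOE. It was under the cut-off after cyclic loess normalization. Tbxas1, the thromboxane synthase, gave 56.7, 33.1 and 30.6 and was under it after scaling to a common median and after quantile normalization. Cbr1, a carbonyl reductase that can act on PGE2, gave 1214, 1608 and 1360.3. Only after scaling to a common median was it past the cut-off, higher in KO than in WT. Akr1c18, an aldo-keto reductase, gave 383, 472 and 239.7 and was 1.97-fold lower in KOE than in KO.

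The remaining prostanoid receptors had no member of 6 past the cut-off in KO vs. WT or KOE vs. KO, and 2 were under 40 on every array. Ptgfr, the prostaglandin F receptor, gave 680.1 in WT, 992 in KO and 677 in KOE at its strongest probe set. It was past the cut-off in both comparisons after scaling to a common median. Tbxa2r, the thromboxane receptor, gave 232, 169.7 and 183.

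Transport and inactivation genes included 2 of 4 that were higher in KO than in WT at the strongest probe set, and none was lower there. Slco2a1 encodes the transporter that carries prostaglandins into cells for breakdown. It gave 539.6 in WT, 1280.5 in KO and 1178 in KOE. Its 4 probe sets were 2.37-, 2.18-, 2.57- and 2.23-fold higher in KO, with KOE at 2.18-, 2.30-, 2.21- and 1.79-fold that in WT. Between KOE and KO, Slco2a1 was within the cut-off at each probe set. Ptgr1, a reductase that inactivates prostaglandins and leukotriene B4, gave 6329, 11975 and 8861, 1.89-fold higher in KO than in WT. Abcc4, an exporter of prostaglandins, gave 1333, 1614 and 1724.

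The leukotriene arm starts from the same arachidonic acid and had 2 of 7 genes higher and 1 lower in KO than in WT. Ltb4r1, a leukotriene B4 receptor of leukocytes, gave 163 in WT, 369 in KO and 332 in KOE, 2.27-fold higher in KO. Cysltr1, a receptor for cysteinyl leukotrienes, gave 241, 373 and 242. It was 1.55-fold higher in KO than in WT and 1.54-fold lower in KOE than in KO. Neither was past the cut-off with 40 added to every signal. Its other probe set, 1449282_at, gave 232, 330 and 184, past the cut-off between KOE and KO but not between KO and WT. Cysltr2, a related receptor, gave 54.3, 31.0 and 49.4, all near the limit of 40, and its higher signal in KOE than in KO was under the cut-off after each of the 3 other scalings. Alox5ap, the 5-lipoxygenase activating protein, gave 1475, 1788 and 1314, under the cut-off. After scaling to a common median it was past the cut-off, lower in KOE than in KO. Lta4h, which makes leukotriene B4, gave 2717, 2863 and 2766, also under the cut-off. Lta4h had weaker probe sets that differed from this, with 95.9, 34.4 and 73.7 at 1426807_at, lower in KO than in the other arrays past the cut-off, and 58.7, 44.9 and 12.5 at 1453528_at, past it between KOE and KO.

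**Figure D3:**
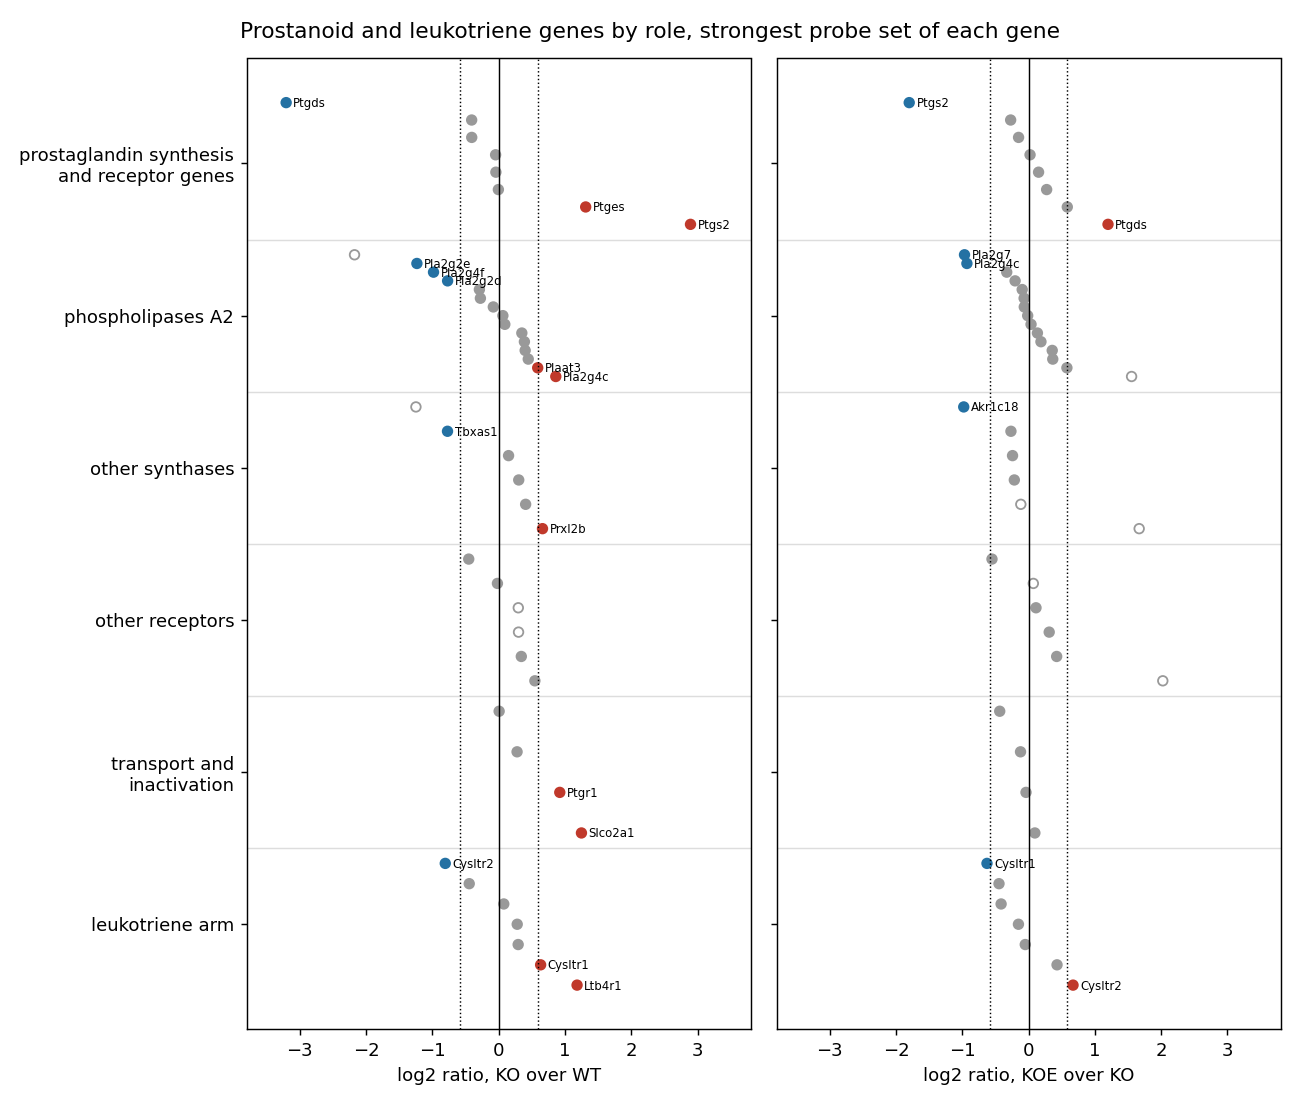
Log2 ratio of KO to WT (left) and of KOE to KO (right) for each measured gene at its strongest probe set, by role; red and blue points are higher and lower past the cut-off, gray points are not past it, open points have a signal under 40 in both arrays, and dotted lines mark a ratio of 1.5. Ptgs2, Ptges, Slco2a1 and Ltb4r1 lie above 2-fold in KO vs. WT, with ratios of 7.42, 2.48, 2.37 and 2.27.

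Genes with the most similar pattern were sought among genes with at least 40 on all 3 arrays, 12887 for Ptgs2 and 12886 for the others, by the distance between their log2 ratios of KO to WT and of KOE to KO. With 3 arrays this likeness rests on 2 values per gene, read at the strongest probe set. Ptgs2 itself was under 40 in WT. Its other probe set had log2 ratios of 2.81 and -0.74, against 2.89 and -1.80 at the strongest. The weaker Ptgds probe set had -2.51 and 0.72, against -3.21 and 1.20. Those of Ptges had 1.01 and 0.07, and 1.15 and -0.62, against 1.31 and -0.15. The neighbours below therefore hold for the strongest probe sets only. The nearest to Ptgs2 was Nr4a1, an orphan nuclear receptor, at a distance of 0.12, with 495 in WT, 3580.3 in KO and 948 in KOE. Epgn, a ligand of the EGF receptor, Crygn, a crystallin gene, Ccn1, a matricellular protein, and Fosb, an AP-1 subunit, followed at 0.33, 0.48, 0.59 and 0.60.

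For Ptges, the nearest was Meis2, a homeobox transcription factor, with 126 in WT, 304 in KO and 281 in KOE at a distance of 0.06. Vegfd, a growth factor for lymphatic vessels, Sh3d21, Higd1b and St6galnac1, a sialyltransferase, followed within 0.07. For Ptgds, the nearest was Tnc, tenascin C, with 779, 79.8 and 192 at a distance of 0.11. Ppp1r3b, a subunit that targets a phosphatase to glycogen, Plb1, a phospholipase B, Hp, haptoglobin, and Col14a1, a collagen that binds fibrils, followed at 0.36, 0.38, 0.39 and 0.52.

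**Figure D4:**
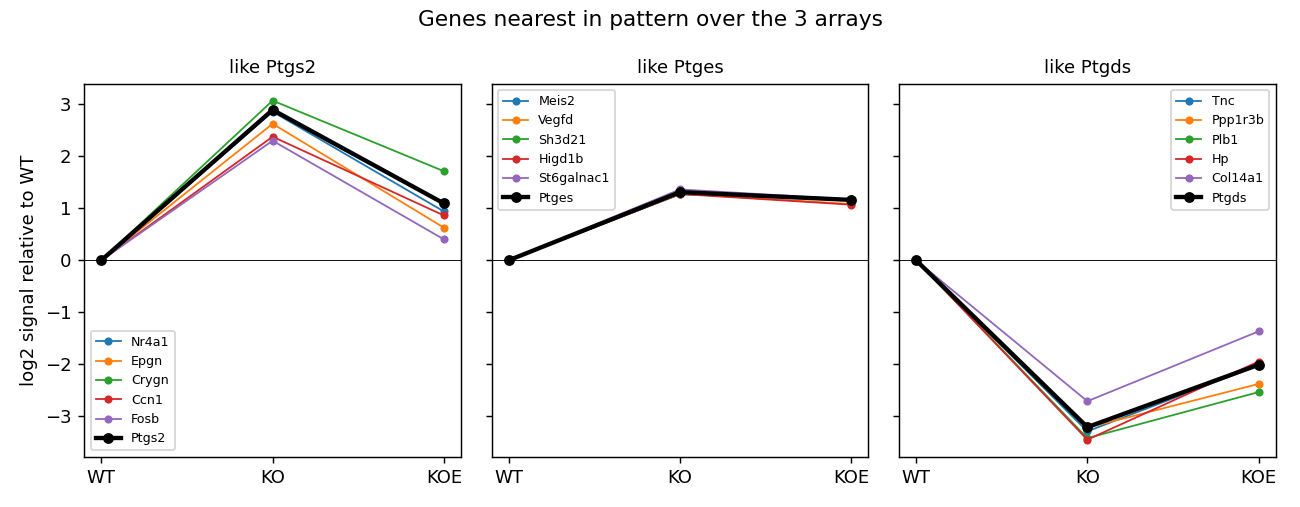
Log2 signal relative to the WT array for Ptgs2, Ptges and Ptgds (black) and the 5 genes nearest to each in pattern (colors), in the WT, KO and KOE arrays, 1 point per array. Ptgs2 peaks in KO at 2.89, Ptges stays near its KO value of 1.31, and Ptgds is lowest in KO at -3.21.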

How the data were processed

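Pooled skin RNA was hybridized to Affymetrix mouse expression arrays, 1 array per group. Linear signal intensities were deposited by the authors, who converted the data in R and normalized them with Affymetrix MAS5, and the 2% trimmed mean was checked to be 500 on each array. Precision is limited by the 3 arrays. Of 45101 probe sets, 64 controls were left out. Of the rest, 34945 have 1 gene name in the platform annotation, 932 have several and 9160 are unnamed here, and 34741 were matched by gene identifier to RefSeq symbols. The strongest singly named probe set, by its mean over the arrays, stood for each gene. KO was divided by WT, and KOE by KO and by WT, without rescaling, and the cut-off of the study (1.5-fold and a signal of 40) was applied. The sources used here do not say which array must reach 40, and either was accepted. Percentages over all genes use genes that reach 40 in either array of the pair.

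The text names the 8 measured members, the 2 strongest genes and those past the cut-off in KO vs. WT or KOE vs. KO of each pathway list, the 2 strongest of each marker list and the 5 genes nearest to Ptgs2, Ptges and Ptgds. Other genes are named where a weak signal or a weaker probe set limits a count. The members and lists were chosen with earlier results of these data known. Of 5 endothelial markers, 1 was higher in KO than in WT, and the strongest, Pecam1 and Emcn, had 466 and 374 in WT, 674 and 642 in KO and 732 and 679 in KOE. Calls were tested on simulated data. Alternatives changed the signal and fold limits, the scaling between arrays, an offset and the choice of probe sets. Python 3.11.15, numpy 2.4.6, pandas 2.3.3, scipy 1.17.1, matplotlib 3.10.9, R 4.3.3 and limma 3.58.1 were used.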

Additional observations from a re-analysis of the deposited data

How the results depend on the processing

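No paired analysis was possible because each group has 1 array, and no array could be left out. In all, 9 alternatives were planned, and 1 (signals under 40 set to 40) was chosen after seeing the data. Of these, 3 change only the call rule and cannot move a log2 ratio. Under the other 7, 152 of 168 log2 ratios of single members moved by less than the SD between probe sets of a gene, many of them because the alternative left their signals as they were, 16 moved by more and no called one changed sign. Adding 40 to every signal took Ptgs2 from 2.89 to 2.06 between KO and WT. The cause of the changes below was not tested.

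Among the members, 1 gene rather than 2 was higher in KO vs. WT, and in KOE vs. WT, when both arrays had to reach 40, since Ptgs2 lies just under 40 in WT. With a limit of 100, 1 was higher in KOE vs. WT. In KOE vs. KO, 2 rather than 1 were higher after quantile and cyclic loess normalization, when Hpgd passed, and with a mean over every probe set of the gene, when Ptger3 did. That averaging also gave 3 higher in KOE vs. WT, and the other member counts stayed as reported.

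The counts of pathway genes changed under more of the alternatives. The share of all genes called was computed for the 3 other scalings only and is given below. For the remaining alternatives no such share stands beside these counts or the member counts. A stricter limit can only lower calls, so a smaller count there is not a result about the pathway. In KO vs. WT, 7 were higher, against 14 after median scaling, 4 with 40 added to every signal and 2 with a fold limit of 2. The 5 that were lower became 3 when both arrays had to reach 40, with a limit of 100, with 40 added and with signals under 40 set to 40, 2 after median scaling and quantile normalization, and 1 with the fold limit of 2. In KOE vs. KO, 1 was higher, which became 0 in 8 of the alternatives (both arrays at 40, limit of 100, median, quantile and cyclic loess scaling, 40 added, fold limit of 2, signals under 40 set to 40) and 2 with plain probe sets only. The 4 that were lower became 7 after median scaling, 2 with 40 added and 0 with the fold limit of 2. In KOE vs. WT, the 3 that were higher became 5 after median scaling, and the 4 that were lower became 0 with the fold limit of 2.

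Median scaling turned the split of all genes in KO vs. WT to 23.2% higher and 8.88% lower, quantile normalization to 14.7% and 10.9%, and cyclic loess (span 0.7, 3 iterations) to 13.1% and 12.1%. In KOE vs. KO these were 8.03% and 9.01%, 7.71% and 7.83%, and 7.54% and 7.82%. Weak probe sets limit Ptgs2 in WT, Ptger2 and the second Ptger3 probe set.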
